A study of Mus musculus with 28 samples.

Results

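The 10 genes described here code for the interleukin-1 cytokines, their natural antagonist, their receptors and the core of the inflammasome. They are Il1a, Il1b, Il1rn, Il1r1, Il1r2, Il1rap, Il18, Casp1, Nlrp3 and Pycard, and they were taken by symbol from the 55450 genes of the RNA-seq table. RNA was sequenced in 12 libraries of C10, a line of mouse Pre-B cells derived from HAFTL cells that carries C/EBPαER, a transgene of rat C/EBPα fused to the hormone binding domain of the estrogen receptor. Each time point had 3 biological replicates: 0h (not induced) and, after the start of trans-differentiation into macrophages, 1h, 12h and 48h, in medium with 100 nM β-estradiol, 10 nM IL-3 and CSF-1. All groups carry the same transgene and come from 1 cell line, and β-estradiol, IL-3 and CSF-1 were added together, so their effects cannot be told apart. Contacts of promoters came from Promoter Capture Hi-C (PCHi-C) lists of the same 4 time points, each merged from 2 replicates.

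Interleukin-1β is the main cytokine by which macrophages start a fever and an acute inflammatory response. It is made as an inactive precursor, and the gene is usually kept silent until a danger signal arrives. A second step is needed for release: a sensor such as NLRP3 binds the adaptor ASC (the product of Pycard), which gathers and activates caspase-1, and caspase-1 cuts the precursors of interleukin-1β and interleukin-18. Released interleukin-1 acts through the receptor encoded by Il1r1 with the accessory chain encoded by Il1rap, and it is held back by the decoy receptor of Il1r2 and by the receptor antagonist of Il1rn, which binds the receptor without signalling.

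The libraries moved from one marker set to the other. The summed TPM (a transcript level corrected for gene length and given as a share of all transcripts in the library) of 5 Pre-B cell markers (Cd79a, Cd79b, Pax5, Vpreb1 and Igll1) lay between 181 and 208 at 0h and between 21.5 and 32.1 at 48h. That of 6 macrophage markers (Csf1r, Itgam, Cd68, Adgre1, Fcgr1 and Lyz2) lay between 3.34 and 4.61 at 0h, between 187 and 272 at 12h and between 152 and 202 at 48h. Most of it at 12h and 48h was Lyz2, with means of 207 and 109 TPM. The means of Csf1r, Itgam, Cd68 and Fcgr1 were higher at 48h (18.7, 8.07, 18.2 and 21.8) than at 12h (9.89, 0.503, 2.94 and 2.93). Adgre1, the gene of F4/80, was listed at no more than 0.29 in any library. Neutrophil markers summed to 0 at 0h and 1h and to between 0.88 and 2.93 at 12h and 48h, nearly all of it S100a8, while Mpo and S100a9 were listed at 0 throughout. Markers of mast cells and T cells were at 0 in all 12 libraries. In bulk libraries, fewer cells of a type and less RNA per cell cannot be told apart. A pair of ribosomal RNA genes took from 70.3% to 82.9% of the TPM, so the level of all other genes moved with that share. The replicate 3 library had the lowest share at each of the 4 times. After the time point means were removed, the replicate 3 libraries correlated with each other across genes (r from 0.07 to 0.257) and negatively with the libraries of other numbers in 20 of 20 pairs, and what they share was not tested. Across the 16415 genes tested, the median log2 fold change against 0h was 0.59 after 1h, 0.34 after 12h and -0.18 after 48h, and values after median-of-ratios scaling (which sets these medians to 0.021, 0.069 and 0.072) are given where they change a call.

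Il1b lies on chromosome 2 (129364570 to 129371139, GRCm38, minus strand), close to Il1a (129299610 to 129309972, minus strand), whereas Il1rn sits far away on the same chromosome (24336853 to 24351494, plus strand). The 250 bases before the start sites of these 3 genes are shown because the contact data below turn on their promoters. For Il1rn, which has further start sites downstream, only the window of the most upstream start site is shown. They were taken from RefSeq (GRCm38.p6). Capitals mark the core promoter letters TATAAA, the AP-1 letters TGANTCA, a match to the NF-kB motif and AAGCTT, the HindIII site at which the chromatin was cut for PCHi-C, searched on both strands.
Il1b, chr2:129371140-129371389, minus strand: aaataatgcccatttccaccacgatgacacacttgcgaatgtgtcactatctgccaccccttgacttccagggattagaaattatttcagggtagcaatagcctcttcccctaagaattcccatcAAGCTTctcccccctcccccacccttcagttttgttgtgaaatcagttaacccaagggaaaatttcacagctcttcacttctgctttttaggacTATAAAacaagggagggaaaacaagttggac
Il1a, chr2:129309973-129310222, minus strand: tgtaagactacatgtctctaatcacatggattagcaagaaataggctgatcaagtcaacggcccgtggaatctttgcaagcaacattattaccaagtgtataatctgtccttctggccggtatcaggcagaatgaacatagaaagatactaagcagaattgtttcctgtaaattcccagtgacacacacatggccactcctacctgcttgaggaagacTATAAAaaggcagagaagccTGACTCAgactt
Il1rn, chr2:24336610-24336859, plus strand: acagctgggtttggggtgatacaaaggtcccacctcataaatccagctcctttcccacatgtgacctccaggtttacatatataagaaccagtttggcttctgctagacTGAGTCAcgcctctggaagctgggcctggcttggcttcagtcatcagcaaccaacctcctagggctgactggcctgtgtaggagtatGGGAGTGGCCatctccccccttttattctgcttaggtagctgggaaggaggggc

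The Il1b promoter holds a HindIII site 125 to 120 bases before the start of transcription. The fragment that carries the start site ran from there to another HindIII cut within the gene, 61 bases from the start. It was 181 bases long, against a median of 5884 bases for the 18175 bait fragments in the contact lists. Of these fragments, 0.033% were shorter. Of all 32817 promoters in the RefSeq table, 6.22% held AAGCTT in the same window. Il1b and Il1a each hold TATAAA shortly before the start (12.4% of all promoters hold it anywhere in these 250 bases), Il1a and Il1rn each hold TGANTCA (6.75%), and Il1rn holds an NF-kB match (17.6%). The letters TTNNGCAA (C/EBP, 9.57% of promoters) and GAGGAAGT (PU.1, 2.44%) are not in the windows shown on either strand. The Il1rn windows before the start sites at 24345291 and 24345371, which are not shown, hold none of the letters searched.

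Il1b, the interleukin-1β gene, was at 0 in each of the 3 libraries of 0h. At 1h it stood at 1.38, 1.51 and 1.32 TPM, at 12h at 26.03, 20.42 and 33.55 and at 48h at 28.96, 37.66 and 34.03. Every library at 1h was above every library at 0h and below every library at 12h, whereas 12h and 48h overlapped. Since the 0h libraries are listed at 0, no fold over 0h can be given, and the fitted log2 fold changes on the scale of log2(TPM + 0.1), 3.91 at 1h, 8.03 at 12h and 8.39 at 48h (SE 0.20 each), depend on the 0.1 added. Their adjusted p-values (limma) were 1.15e-06, 1.10e-09 and 2.22e-10 in the same order. Between 1h and 12h the mean TPM went from 1.40 ± 0.097 to 26.7 ± 6.59 (SD, n = 3), 19.0 times as much, with a log2 fold change of 4.13 (SE 0.20, adjusted p = 4.30e-07, limma). From 12h to 48h the log2 fold change was 0.35 (SE 0.20) and did not pass (adjusted p = 0.203, limma), although the scaled value, 1.10, passed (adjusted p = 0.000389, limma). By mean TPM, Il1b ranked 360th of the 16415 genes at 48h. The gene Il1bos overlaps Il1b on the other strand by 25 exonic bases, and since the library kit keeps no strand their reads cannot be told apart there. Il1bos was listed at no more than 0.39 TPM in any library.

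Il1a, the interleukin-1α gene next to Il1b, stayed at or near 0. It was listed above 0 in 2 of the 12 libraries, at 0.03 TPM in 1h replicate 3 and at 0.07 in 48h replicate 3, and it did not reach the mean of 0.1 TPM needed for a test.

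Il18, the interleukin-18 gene, responded later and at a lower level. Its TPM were 0.20, 0.39 and 0.19 at 0h, 0, 0.20 and 0.18 at 1h, 1.02, 0.60 and 0.78 at 12h and 1.72, 4.55 and 2.65 at 48h. The 3 libraries at 48h were above all others, with the 12h libraries between them and the earlier ones. At 48h the log2 fold change over 0h was 3.03 (SE 0.48, adjusted p = 0.00029, limma). At 12h it was 1.34 (SE 0.48) and did not pass (adjusted p = 0.0531, limma). From 12h to 48h Il18 rose by 1.69 on the log2 scale (SE 0.48, adjusted p = 0.0162, limma), a call that was lost without 12h replicate 2 (1.52, adjusted p = 0.0614), 12h replicate 3 (1.69, adjusted p = 0.0512) or 48h replicate 2 (1.34, adjusted p = 0.073).

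**Figure D1:**
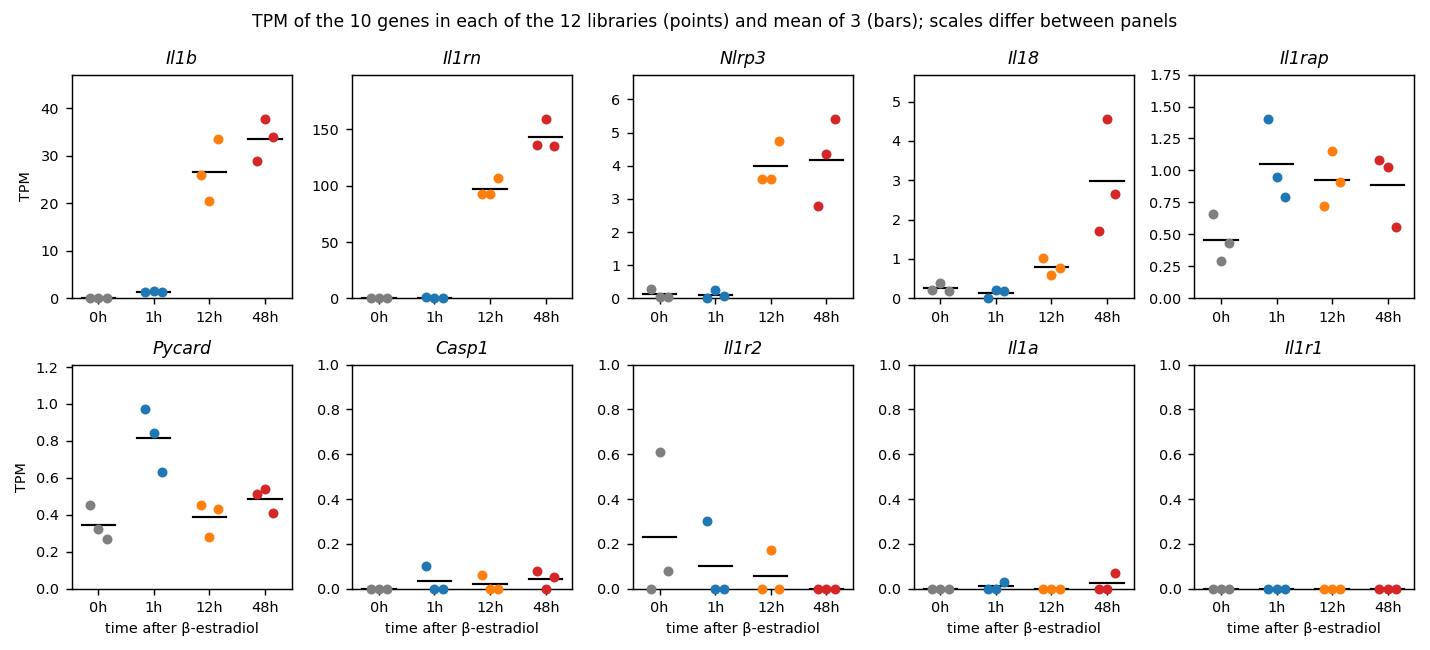
Level in TPM (vertical axis, from 0, with its own scale in each panel) of the 10 genes at 0h, 1h, 12h and 48h; points are the 3 libraries of a time point and bars their mean. Il1b and Il1rn stand above 20 TPM in every library at 12h and 48h, Nlrp3 and Il18 reach a few TPM, and Casp1, Il1a, Il1r1 and Il1r2 stay below 1 in every library.

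Il1rn, the gene of the receptor antagonist, had the highest level of the 10 genes at 12h and 48h. It was listed at 0.08, 0 and 0.02 TPM at 0h, 0.83, 0.66 and 0.42 at 1h, 92.54, 92.23 and 107.01 at 12h and 135.86, 158.94 and 134.93 at 48h. No 2 time points overlapped. The log2 fold change over 0h was 2.47 at 1h (adjusted p = 9.05e-05), 9.55 at 12h (adjusted p = 1.44e-09) and 10.11 at 48h (adjusted p = 2.22e-10), with an SE of 0.25 each (limma). With 1 in place of 0.1 added to the TPM, the value at 1h was 0.66 and the fold change was no longer over 2. Between 1h and 12h the mean TPM went from 0.637 ± 0.206 to 97.3 ± 8.45 (SD, n = 3), 153 times as much, with a log2 fold change of 7.08 (SE 0.25, adjusted p = 4.17e-08, limma). Between 12h and 48h the log2 fold change was 0.56 (SE 0.25) and did not pass (adjusted p = 0.111, limma), while the scaled value, 1.31, passed (adjusted p = 0.00127, limma). At 48h Il1rn ranked 97th of the 16415 genes by mean TPM.

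The order of agonist and antagonist changed between 1h and 12h. At 1h the TPM of Il1rn divided by that of Il1b was 0.601, 0.437 and 0.318, so Il1b was above Il1rn in each library. At 12h the ratio was 3.56, 4.52 and 3.19, and at 48h it was 4.69, 4.22 and 3.97. All 6 later libraries therefore had more Il1rn than Il1b, and the 12h and 48h ratios overlapped. Their log2 ratios, with 0.1 added to each TPM, differed by 0.21 between 48h and 12h (two-sided exact permutation test, p = 0.3, where 3 libraries against 3 cannot go below 0.1). The ratio is taken within a library and does not move with the scaling between libraries, other than through the 0.1.

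**Figure D2:**
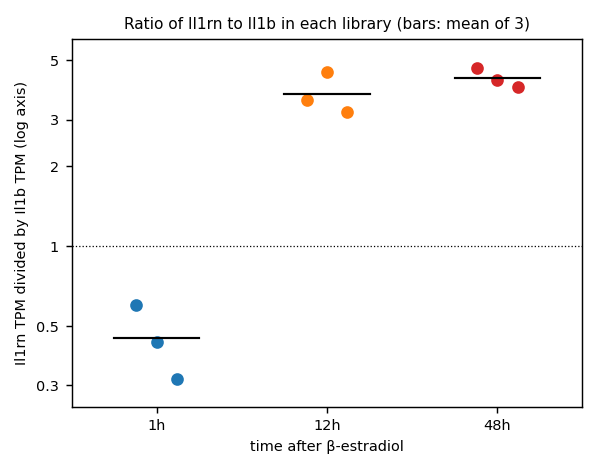
TPM of Il1rn divided by TPM of Il1b in each library (log axis) at 1h, 12h and 48h; points are libraries, bars the mean of 3, and the dotted line marks equal levels. The 3 libraries at 1h lie between 0.318 and 0.601, below the line, and the 6 at 12h and 48h lie between 3.19 and 4.69.

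Of the receptor genes, only the accessory chain was expressed at a level that could be tested. Il1r1, the gene of the signalling receptor, was listed at 0 in all 12 libraries. Il1r2, the decoy receptor, was listed at 0, 0.61 and 0.08 TPM at 0h, 0.30, 0 and 0 at 1h, 0, 0.17 and 0 at 12h and 0 in all 3 libraries at 48h. Both were below the filter, and the ratio of Il1r2 to Il1r1 says nothing here because it rests on the 0.1 added (difference in mean log2 ratio between 48h and 12h of -0.48, exact permutation test, p = 1). Il1rap stood at 0.66, 0.29 and 0.43 TPM at 0h, 1.40, 0.95 and 0.79 at 1h, 0.72, 1.15 and 0.91 at 12h and 1.08, 1.03 and 0.56 at 48h. The 1h and the 12h libraries were all above those at 0h, and those at 48h overlapped with them. Its log2 fold change at 1h, 1.05 (SE 0.34, adjusted p = 0.0443, limma), passed, but its scaled value was 0.47 (adjusted p = 0.435, limma). The call was also lost when any 1 of 0h replicate 2, 0h replicate 3, 1h replicate 1 or 1h replicate 2 was left out (0.82 to 1.10, adjusted p from 0.0921 to 0.15). At 48h it was 0.83 (adjusted p = 0.0736, limma), and it was called without 0h replicate 1 (1.08, adjusted p = 0.037) or 48h replicate 3 (1.10, adjusted p = 0.0296) and after the scaling (1.22, adjusted p = 0.0122). At 12h it was 0.91 (adjusted p = 0.0689, limma) and was called without 0h replicate 1 (1.15, adjusted p = 0.0392).

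Of the inflammasome genes, the sensor Nlrp3 rose, and the caspase gene stayed near 0. Nlrp3 stood at 0.29, 0.03 and 0.05 TPM at 0h, 0, 0.26 and 0.07 at 1h, 3.59, 3.59 and 4.75 at 12h and 2.79, 4.35 and 5.40 at 48h. Each library at 12h and 48h was above each library at 0h and 1h, and neither the early nor the late pair of time points was separated. The log2 fold change over 0h was -0.10 at 1h (SE 0.51, adjusted p = 0.907), 4.36 at 12h (adjusted p = 7.46e-05) and 4.39 at 48h (adjusted p = 2.75e-05, limma). From 12h to 48h it was 0.03 (SE 0.51, adjusted p = 0.987, limma).

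Pycard, the gene of the adaptor ASC, was low at all times. It stood at 0.45, 0.32 and 0.27 TPM at 0h, 0.97, 0.84 and 0.63 at 1h, 0.45, 0.28 and 0.43 at 12h and 0.51, 0.54 and 0.41 at 48h. The 1h libraries were above all others. The log2 fold change at 1h, 1.03 (SE 0.29, adjusted p = 0.0227, limma), came to 0.47 when scaled (adjusted p = 0.29, limma). It was called in 5 of 15 alternatives, and no longer without 0h replicate 2, 0h replicate 3, 1h replicate 1 or 1h replicate 2 (0.91 to 1.00, adjusted p from 0.0629 to 0.0767). At 48h the log2 fold change over 0h was 0.41 (SE 0.29, adjusted p = 0.283, limma). From 1h to 12h it was -0.91 (adjusted p = 0.041, limma), short of the fold threshold, and it was -1.06 without 1h replicate 3, which passed. The exons of Pycard share 485 bases with Gm45205 and those of Il1rap 552 bases with Gm20319, both on the opposite strand, so these low levels cannot be assigned by strand.

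Casp1, the gene of caspase-1, was listed at 0 in 8 of the 12 libraries. The highest value was 0.10 TPM in 1h replicate 1, and at 48h its values were 0.08, 0 and 0.05. It was below the filter and was not tested. None of 16 genes that nearly every cell uses, such as Actb and Gapdh, was listed at 0 in any library. Their lowest value was 2.17 TPM (Tbp), so they cannot show how often a gene near 0 is missed.

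Counts over these genes rest on few of them. Of the 10, 6 reached the filter and 4 (Il1a, Il1r1, Il1r2 and Casp1) did not. Nlrp3 and Il18 reached it only through their 12h and 48h levels, so that their being tested at all depended on those levels. Il1b, at 0 in every 0h library, and Il1rn, with a mean of 0.033 TPM at 0h, reached it only through libraries after 0h. The filter took the mean over all libraries, so it was not independent of the changes tested. At 1h 4 of the 6 rose (Il1b, Il1rn, Il1rap and Pycard), against 16.7% of all genes tested, and 2 did after median-of-ratios scaling (Il1b and Il1rn, against 4.08%). At 12h 3 rose (Il1b, Il1rn and Nlrp3), against 17.7%, and at 48h 4 rose (Il1b, Il1rn, Nlrp3 and Il18), against 13.5%. From 1h to 12h 4 rose (Il1b, Il1rn, Nlrp3 and Il18), against 5.49%, and from 12h to 48h 1 rose (Il18), against 3.55%, or 3 after the scaling (Il18, Il1b and Il1rn), against 7.56%. With replicates 1 and 2 alone, a fit added after the data were seen, 2 rose at 1h (Il1b and Il1rn), 3 at 12h and 4 at 48h against 0h, 3 from 1h to 12h (Il18 at 2.35 did not pass, adjusted p = 0.0825, limma) and none from 12h to 48h (Il18 at 1.72, adjusted p = 0.154, limma). None of the 6 fell in any of the 5 comparisons, whereas the share of all genes that fell against 0h was 1.08% after 1h, 5.75% after 12h and 23.1% after 48h, 10.6% from 1h to 12h and 23.8% from 12h to 48h. Libraries without overlap, all of the later time point being higher, were found for 4 of the 6 at 1h (background 40.8%), 5 at 12h (30.6%) and 4 at 48h (19.2%), for 4 from 1h to 12h (12.1%) and for 2 from 12h to 48h (5.81%). With all libraries lower, this held for none of the 6 at 1h (background 3.28%), and from 1h to 12h for 1, Pycard (27.2%). The comparisons against 0h share their control libraries. The scaling changed the split of all calls: at 48h 36.9% of them were increases on the TPM as deposited and 52.6% after the scaling.

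**Figure D3:**
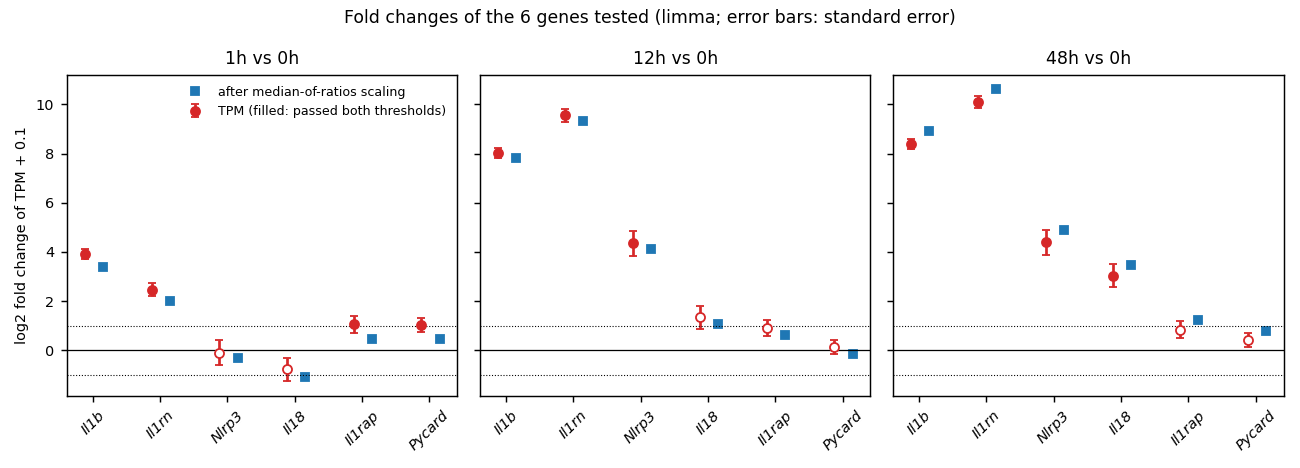
Log2 fold change of TPM + 0.1 against 0h (vertical axis) for the 6 genes tested, at 1h, 12h and 48h; circles with standard error bars are from the deposited TPM, filled where both thresholds were passed, and squares are the values after median-of-ratios scaling. Il1b and Il1rn are filled at all 3 times, Nlrp3 from 12h and Il18 at 48h, and the 1h values of Il1rap and Pycard fall from 1.05 and 1.03 to 0.47 with the scaling.

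The other genes of the pathway were taken from a list of 44, of which 31 were tested. At 48h 14 of the 31 rose and 3 fell (background 13.5% and 23.1%), and after median-of-ratios scaling 17 rose and 2 fell (background 19.6% and 17.6%). Their median log2 fold change was 1.10, beside -0.18 over all genes tested. At 12h 12 rose and 1 fell (background 17.7% and 5.75%), or 9 and 1 with the scaling (12.0% and 9.39%). At 1h 7 rose and none fell (background 16.7% and 1.08%), or 1 and 1 with the scaling (4.08% and 2.83%), and these shares are near the background.

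The 8 inflammasome sensors that were tested passed as higher at 48h (Nlrp1a, Nlrp1b, Nlrc4, Naip1, Naip2, Naip5, Naip6 and Aim2), while the sensor genes Nlrp6 and Mefv were listed at 0 in every library. The 8 also passed with the scaling. With a pseudocount of 1, Naip1 (0.36), Nlrc4 (0.49), Nlrp1a (0.81) and Naip6 (0.88) fell short of the fold threshold. The call of Naip1 was also lost without 48h replicate 1 (1.56, adjusted p = 0.0682, limma). Naip1 reached the filter only through its 12h and 48h levels, so its test is no independent evidence of a rise. For the other sensors too, the filter mean took in the libraries after 0h. Nlrc4 (1.11) was called in 9 of 15 alternatives and was 0.74 with replicates 1 and 2 alone (adjusted p = 0.207, limma); leaving out 0h replicate 3, 48h replicate 2 or 48h replicate 3 ended its call (0.81, 1.03 and 1.03, adjusted p = 0.0748, 0.0623 and 0.0561). Aim2, which senses DNA in the cytosol, had a mean of 0.10 ± 0.092 TPM at 0h and of 2.99 ± 0.47 at 48h (SD, n = 3), a log2 fold change of 4.06 (SE 0.47, adjusted p = 2.61e-05, limma). Naip2, which binds bacterial secretion proteins and passes the signal to NLRC4, went from 0.763 ± 0.221 to 8.25 ± 0.566, a log2 fold change of 3.31 (SE 0.23, adjusted p = 5.48e-07, limma). Its level was 2.48 ± 0.597 TPM at 1h, where it had also risen (1.59, adjusted p = 0.000933, limma, but not with the scaling). Naip5, a sensor of flagellin, went from 0.28 ± 0.03 to 1.94 ± 0.061 TPM (2.43, SE 0.21, adjusted p = 2.36e-06, limma). Naip1, Naip2, Naip5 and Naip6 are close copies of each other, as are Nlrp1a and Nlrp1b, so the share of reads given to each is uncertain.

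Of the 7 effectors and regulators tested, Txnip and P2rx7 rose at 48h and Panx1 fell. Txnip, which binds thioredoxin and has been linked to NLRP3, stood at 5.26 ± 1.19 TPM at 0h and 55.2 ± 12.4 at 48h (log2 fold change 3.37, SE 0.22, adjusted p = 2.85e-07, limma). P2rx7, the ATP-gated channel that triggers NLRP3, stood at 0.913 ± 0.279 and 2.41 ± 0.55 TPM (1.32, SE 0.31, adjusted p = 0.00457, limma). Panx1, a channel that releases ATP, fell from 4.37 ± 0.476 to 1.12 ± 0.722 TPM (-2.09, SE 0.43, adjusted p = 0.00193, limma). Gsdmd, the gene of the pore-forming gasdermin D, stood between 3.25 and 9.03 TPM at 48h and between 1.70 and 2.89 at 0h, and did not pass (1.12, SE 0.46, adjusted p = 0.0677, limma), although it did after the scaling (1.53, adjusted p = 0.0134). Casp4, the gene of the other inflammatory caspase on the list, was listed at no more than 0.17 TPM in any library.

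Of the 12 genes of receptor signalling, all tested, Irak2, Peli1, Irak3 and Myd88 rose at 48h and Tab1 fell. Irak2, a kinase of the interleukin-1 and Toll-like receptor pathway, stood at 0.343 ± 0.18 TPM at 0h and 3.92 ± 1.43 at 48h (3.21, SE 0.36, adjusted p = 2.13e-05, limma). Peli1, a ubiquitin ligase of the same pathway, stood at 1.99 ± 0.21 and 8.13 ± 0.37 (1.98, SE 0.18, adjusted p = 4.70e-06, limma). Irak3, an inhibitor of the pathway, had its highest mean at 12h (8.10 ± 0.603 TPM), after 1.16 ± 0.123 at 0h and 6.42 ± 1.2 at 1h, and stood at 3.34 ± 0.437 by 48h (1.44 at 48h, SE 0.19, adjusted p = 7.28e-05, limma). It was the 1 gene of the list that rose at 1h with the scaling. The fall of Tab1 did not pass with the scaling (-1.01, adjusted p = 0.0507, limma).

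The rest of the cytokine family and its receptors stayed low. Of 7 further ligands and binding proteins 3 were tested, and Il33 fell at 48h, from 1.29 ± 0.696 to 0.273 ± 0.387 TPM (-2.27, SE 0.65, adjusted p = 0.0145, limma), a call that was lost without 0h replicate 1, 48h replicate 2 or 48h replicate 3 (-1.91, -1.96 and -1.77). Il33 had also fallen at 12h against 0h, with and without the scaling. Il18bp, the gene of the interleukin-18 binding protein, rose at 1h (1.73, SE 0.38, adjusted p = 0.00777, limma) and at 12h, at neither time with the scaling. At 48h Il18bp passed only with the scaling. The interleukin-36 genes (named Il1f5, Il1f6, Il1f8 and Il1f9 in the table) were listed at no more than 0.50 TPM. Of 7 further receptors of the family 1, Sigirr, was tested, and it did not pass at any of the 3 times against 0h.

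**Figure D4:**
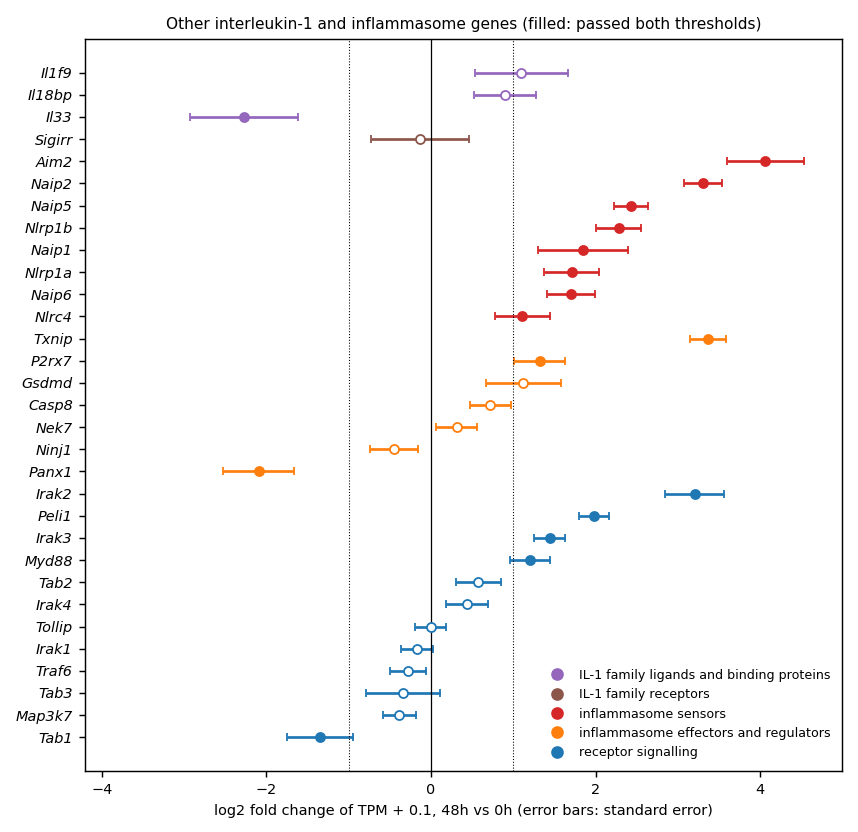
Log2 fold change of TPM + 0.1 at 48h against 0h (horizontal axis) with its standard error for the 31 tested genes of the pathway list; colours mark the role and filled points passed both thresholds (dotted lines: fold change of 2). The 8 sensors tested are filled to the right of the line, between 1.11 and 4.06, and Il33, Panx1 and Tab1 are filled on the left.

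Over the 12 libraries, the genes whose log2(TPM + 0.1) was most like that of Il1b, among 9314 whose mean TPM reached 1, were Cd14 (Pearson r = 0.997), Tlr2 (0.994), Abca9 (0.993), Ctsc (0.992) and Gm26522 (0.992). CD14 and TLR2 are receptors for bacterial lipids. Cd14 was listed at 0 at 0h, and its mean TPM (SD, n = 3) was 1.89 ± 0.312 after 1h, 50.0 ± 6.97 after 12h and 46.7 ± 13.3 after 48h. Those most like Il1rn were Cd33 (0.997), Gm44751 (0.993), Igsf6 (0.993), Ctsc (0.991) and Ifi209 (0.991). Those most like Nlrp3 were Plekho2 (0.981), Cflar (0.980), Slfn2 (0.979), Cstb (0.977) and Bcl2a1b (0.976). The 12 points are 4 time points of 3 libraries and share the marker change and the scaling, so these values describe the time course and are not tested.

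PCHi-C lists pairs of HindIII fragments in which at least 1, the bait, holds a promoter. The 0h list gives a CHiCAGO score (at least 5) for each pair, and the lists of 1h, 12h and 48h give whole numbers that were taken as read pairs, so values at 0h are not compared with the others. Since the 2 replicates were merged, no contact has a replicate error. The 18175 baits used for comparison are the fragments listed as a bait at any of the times. A captured fragment with no listed contact at any time is not among them. The shares of all baits and the median number of contacts given below therefore hold for listed baits only.

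The promoter fragment of Il1b (chr2:129371079-129371259) was listed with no contact at 0h and 1h (as were 7.73% of all baits), 4 at 12h and 8 at 48h, whereas the median bait had 4 contacts in each list. Since the fragment had no contact at 0h, all 8 partners at 48h were new by definition. No contact at 0h and at least 8 at 48h were found for 0.501% of all baits, limits taken from these counts. Among the contacts of all baits, 46.2% of those at 48h were absent at 0h (42.0% at 1h and 43.9% at 12h). At 12h the strongest of the 4 was a fragment 9.68 kb downstream (59 read pairs), followed by the fragment of the Il1a promoter, 56.9 kb away (chr2:129308452-129320160, 39 read pairs), and by its neighbours on either side (25 and 16). At 48h the fragments beside the Il1a promoter were still listed (17 each) and that of the promoter itself was not. At 48h alone 3 partners upstream of Il1b appeared, at 28.0, 30.6 and 41.4 kb (29, 27 and 18 read pairs), and 3 downstream, at 83.4, 89.3 and 189 kb (13, 10 and 8). None of these contacts reached Il1rn.

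The Il1a promoter fragment also had its first contacts at 12h, but fewer at 48h than at 12h, and without RNA to match. It had no contact at 0h and 1h, 18 at 12h and 11 at 48h, all on the side of Il1b, at 44.7 to 112 kb. The 18 partners at 12h ran through the Il1b gene and past its promoter, with the highest values, 64 read pairs each, at 47.2 and 56.0 kb. With Il1b it shared 1 partner at 12h and 3 at 48h, the last being the 3 fragments upstream of Il1b that appeared there at 48h. The Il1a fragment was already listed with them at 12h (26, 38 and 34 read pairs). Il1a itself was listed at no more than 0.07 TPM.

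Another bait, chosen after its values were seen, carries a start site of Il1bos and lies inside the Il1b gene (chr2:129369850-129370713, 864 bases). It too was listed with no contact at 0h and 1h, with 12 at 12h and 15 at 48h. The fragments 28.0 to 41.4 kb upstream of Il1b were among its partners at 48h and not at 12h, with 50, 52 and 35 read pairs. Of all 18175 baits, 10 (0.055%) had no contact at 0h and 1h, at least 4 at 12h and at least 8 at 48h, and 3 of these 10 were the Il1a, Il1b and Il1bos fragments. These limits were set from the Il1b counts, and the 3 fragments are listed as partners of each other, so they are not independent.

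The Il1rn promoter fragment (chr2:24334494-24343380, 8887 bases) already had contacts before induction. Of the 5 start sites of Il1rn, it holds those at 24336853 and 24336856. Those at 24345288, 24345310 and 24345348 lie in no listed fragment, so their contacts are not known. TPM are given per gene, so the start site that the RNA came from is not known either. The 4 lists gave the fragment 3, 7, 13 and 16 contacts in the order of time, a rise from list to list that 3.35% of all baits showed. Partners were also lost: the one with the most read pairs at 1h (117), 12.9 kb downstream, was in no other list. The 3 partners of 0h, at 26.4 and 30.9 kb upstream and 413 kb downstream (scores of 6.41, 5.63 and 6.62), were in all 4 lists. Of the 16 at 48h, 13 were not listed at 0h, and 5 if a partner within 10 kb of a 0h partner counts as shared. From 12h the partners upstream formed an almost unbroken run from 7.39 to 37.9 kb, and at 48h the run reached 48.2 kb and the promoter fragment of Il1f10, another gene of the family (43 read pairs), which was listed at no more than 0.20 TPM in any library.

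The partners of Il1rn upstream had more read pairs at 48h than at 12h. The nearest, at 7.39 kb, had 99 and 174, and those at 23.7 kb had 63 and 120. Over the 7 partners within 50 kb in both lists, the ratio of 48h to 12h ranged from 1.30 to 1.90 with a median of 1.70, beside a median of 1.32 (quartiles 1.12 and 1.57) over the 10305 contacts within 50 kb that both lists hold. Of these, 16.2% had a higher ratio than the Il1rn median. Farther away, a group of partners at 404 to 422 kb downstream had 5 to 12 read pairs in the lists of 1h, 12h and 48h, and it included the promoter fragment of Cacna1b, a calcium channel gene with a mean of 9.18 TPM at 1h and 1.40 at 48h.

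The other genes differed in timing. The Il1r2 fragment, which holds internal start sites of the gene, had 17, 14, 8 and 17 contacts in the 4 lists, the Il1rap fragment 0, 1, 2 and 8, the Pycard fragment 12, 10, 13 and 25 and the Nlrp3 fragment 8, 9, 6 and 1. For Nlrp3 the 1 contact left at 48h, at 13.8 kb, was in all 4 lists, with 297, 240 and 377 read pairs at 1h, 12h and 48h. Numbers of contacts went down for Nlrp3 and up for Il1b while the RNA of both was higher at 48h than at 0h. All partners of the Nlrp3 fragment at 1h, 12h and 48h were themselves baits, whereas most of those of Il1b were not. The counts of these fragments are therefore not alike in kind. An internal start site of Il18 had 1, 3, 2 and 2 contacts, all with other baits. The fragments at the first start sites of Il18 and Casp1 were not listed as baits, and those of Il1r1 were not in the lists.

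**Figure D5:**
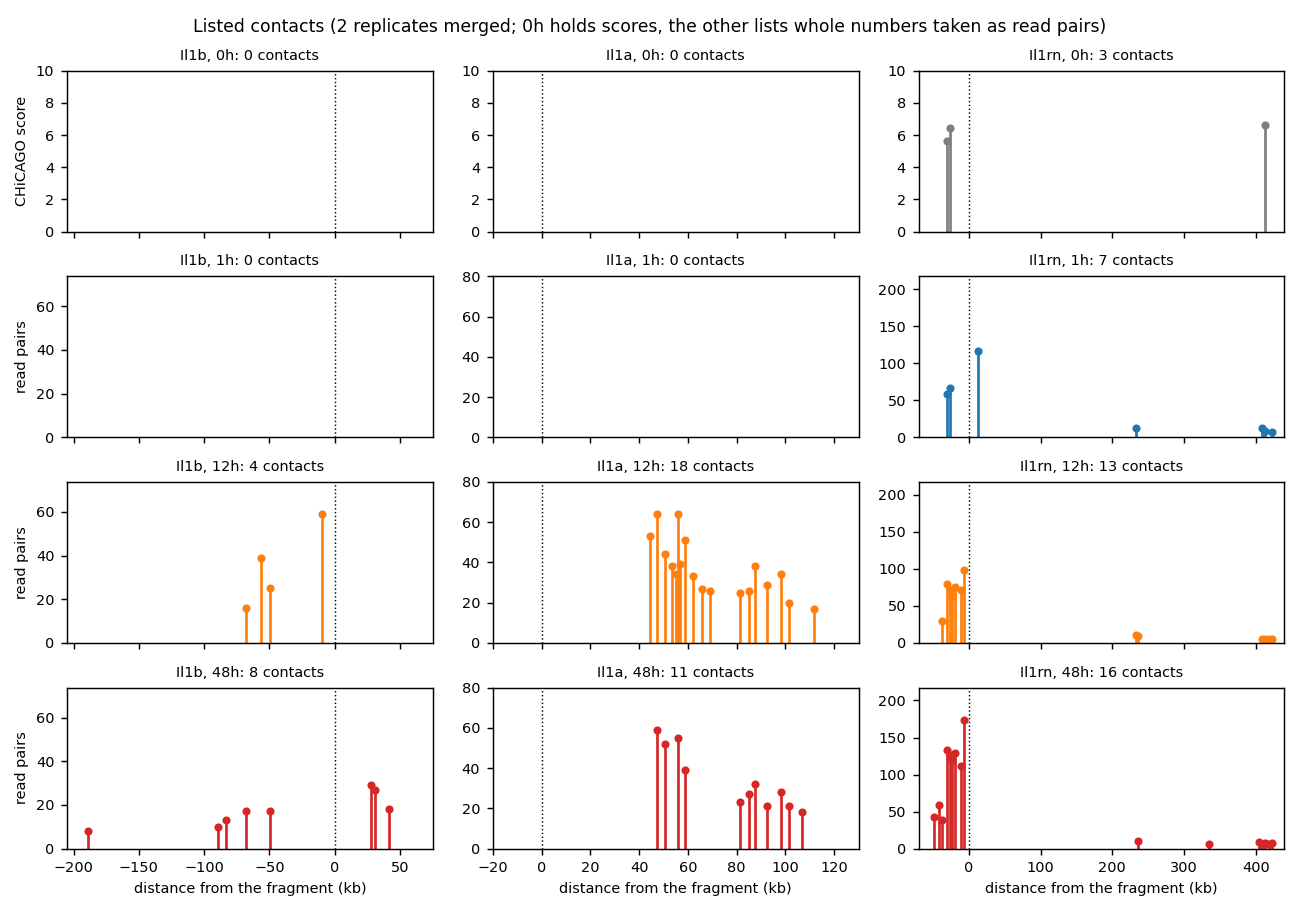
Listed contacts of the Il1b, Il1a and Il1rn promoter fragments (columns) at 0h, 1h, 12h and 48h (rows); the horizontal axis is the distance along the chromosome from the fragment in kb and the height is the CHiCAGO score at 0h and the number of read pairs at the other times. Il1b and Il1a have no contact at 0h and 1h and gain 4 and 18 at 12h, and Il1rn goes from 3 to 16.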

How the data were processed

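RNA-seq of 12 libraries (4 time points, 3 replicates each) and 4 merged PCHi-C lists were used; Hi-C was not used. The RNA-seq reads, with technical replicates merged by the authors, were trimmed with Trim Galore 0.6.2 and mapped to mm10 with HISAT2 2.1.0, and RSEM gave the deposited TPM. TPM keep no record of depth. The authors' PCHi-C interactions came from CHiCAGO, run on 2 merged replicates with a score cut-off of 5. The deposited 0h list holds scores, and those of the later times, as deposited, hold whole numbers, read here as counts of read pairs, since they fall with distance and are equal in both directions. Neither the unit nor the reason for the difference is given in the sources used here. Each pair of fragments was counted once.

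The 16415 genes whose mean TPM reached 0.1 were tested on log2(TPM + 0.1) with limma 3.58.1 in R 4.3.3 (all 12 libraries in 1 model, eBayes with a trend). A gene passed with a Benjamini-Hochberg adjusted p under 0.05 over all genes tested and a fold change over 2, the authors' thresholds for DESeq2. Fold changes on this scale understate the change of low genes. Ratios were compared by exact permutation tests. The model and the permutation test were tested on simulated data. Coordinates are those of GRCm38 (GENCODE M21), and all 50 partner fragments checked on chromosome 2 started at a HindIII cut. Python 3.11.15 with pandas 2.3.3 and scipy 1.17.1 did the other steps.

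The genes and lists were chosen with earlier results of these data known. Genes were named by rule: all 10, up to 3 of the pathway list per role with the largest change at 48h, the 5 most like Il1b, Il1rn and Nlrp3, genes at contact partners and Il1bos; genes named beyond this rule (such as Gsdmd, Casp4 and the Il1bos fragment) were chosen after their values were seen. Of the Pre-B cell markers, 1 is not reported here. A fit of replicates 1 and 2 alone was added after the data were seen. Alternatives varied the pseudocount, filter, scaling, trend, libraries, replicate block and thresholds, and the list threshold, distance and overlap for contacts.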

Additional observations from a re-analysis of the deposited data

How the results depend on the processing

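For 12h vs 0h, 48h vs 0h and 12h vs 1h the number of the 10 genes that passed stayed within 1.5 times the reported one in all alternatives run; leaving out 1 library gave 3 to 4, 4 to 5 and 4 to 5. At 1h the 4 became 1 with a pseudocount of 1 (Il1b) and 2 (Il1b and Il1rn) with no filter, a mean TPM of at least 1 (which removes Il1rap and Pycard from the test), median-of-ratios scaling, rescaling without the 20 most abundant genes, only the libraries compared or a log2 fold change beyond 2, and 2 to 4 when 1 library was left out. From 12h to 48h the 1 (Il18) became 3 with median-of-ratios scaling and 0 with a pseudocount of 0.01, with rescaling without the 20 most abundant genes and with a log2 fold change beyond 2, and 0 to 1 when 1 library was left out; the cause of these changes was not tested. Signs turned only for values that had not passed. With median-of-ratios scaling and with rescaling, Il1rap went to 0.15 and 0.11 (12h vs 1h) and to 0.60 and 0.46 (48h vs 12h), and Pycard to -0.13 and -0.055 (12h vs 0h). Leaving out 1 library gave -0.31 to 0.066 and -0.23 to 0.19 for Il1rap in the first 2 comparisons, -0.0011 to 0.29 for Pycard at 12h, -0.59 to 0.39 for Nlrp3 at 1h and -0.17 to 0.29 for Nlrp3 from 12h to 48h. The difference in log2 ratio of Il1rn to Il1b between 48h and 12h was 0.097 to 0.35 when 1 library was left out, and that of Il1r2 to Il1r1 -0.72 to 0. By the correlation of deviations from the time point means, the replicate numbers did not meet the limit for pairing (over 0.1 in every pair): same-numbered libraries had r from -0.012 to 0.257, with 6 of 15 over 0.1, of which 4 of 5 for replicate 3, 2 of 5 for replicate 1 and none of 5 for replicate 2. With the replicate block 4, 4, 4, 4 and 1 genes passed in place of 4, 3, 4, 4 and 1 (Il18 at 12h was added, adjusted p = 0.0451, limma), and the difference in log2 ratio of Il1rn to Il1b remained 0.21 (exact permutation test within 3 pairs, p = 0.5). Above the median of the list values, the contacts at 48h numbered 5 in place of 8 for Il1b and 9 in place of 16 for Il1rn; those of Il1rn not at 0h numbered 5 in place of 13 with the 10 kb overlap. With replicates 1 and 2 alone (chosen after seeing the data) 2, 3, 4, 3 and 0 of the genes passed, P2rx7 and Il33 no longer passed at 48h, and the sign turned for Il1rap (0.19) and Nlrp3 (-0.041) from 12h to 48h and for Pycard at 12h (-0.072). Over all genes, the 2924 calls at 1h became 973 with a pseudocount of 1, 1747 with a mean TPM of at least 1, 1134 with median-of-ratios scaling and 1073 with rescaling. The 4492 from 12h to 48h became 2237, 2508 and 2482 with the pseudocount and both scalings, and with a pseudocount of 1 the 3847 at 12h, 6010 at 48h and 2647 from 1h to 12h became 1833, 3449 and 1485. TPM keep no depth, so no counting error can be given for levels near 0, and none between replicates for the merged lists.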

Other observations

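Other contact partners near Il1b held promoters of genes outside the family. The Il1bos fragment was listed at 12h and 48h with the promoter fragment of Slc20a1, a phosphate transporter gene, at 173 kb (15 and 16 read pairs), and with that of Ckap2l, a gene of the mitotic spindle, at 74.4 kb (17 and 18). Slc20a1 stood at 10.5 TPM on average at 0h, 27.6 at 12h and 6.36 at 48h. Ckap2l stood at 2.36 to 2.90 TPM at 0h and at 0, 0.09 and 0 at 48h. Both genes were named after their values were seen.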
